A study of Rattus norvegicus with 52 samples.

Results

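Stearoyl-CoA desaturase was followed through 6 probe sets of an oligonucleotide array, out of 8799 in the deposited table. They are the rows whose IDs begin with j02585, m15114, rc_aa875269 or af036761, accessions listed as stearoyl-CoA desaturases. The family was chosen by the measured rise of m15114_g_at and rc_aa875269_at between 0.29% and 0.54% clofibric acid (CA), so the dose comparisons of these 2 rows are given as a description, with no test, in every preparation. Total RNA came from liver sections of F344 rats that were untreated or had received CA at 0.29% or 0.54%. CA is a fibrate drug and activates the nuclear receptor PPARα. Entire sections gave 8 arrays of untreated rats, 8 at 0.29% CA and 6 at 0.54% CA, and stained sections gave 8, 7 and 5. For sections that were dehydrated, and for those called LCM-reference-time (LCM is laser capture microdissection), there was 1 array per dose, untreated included. For microdissected liver there were 2 untreated arrays, 1 at 0.29% and 1 at 0.54%.

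Stearoyl-CoA desaturase is a membrane enzyme of the endoplasmic reticulum. It puts the first double bond into palmitoyl-CoA and stearoyl-CoA, with electrons passed on by cytochrome b5 and its reductase, and its products palmitoleate and oleate enter triglycerides, phospholipids and cholesterol esters. In liver its RNA is known to rise with insulin and dietary carbohydrate through sterol regulatory element-binding protein and with fibrates through PPARα.

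The rat genome (RefSeq, build GRCr8) holds 4 protein-coding desaturase genes on chromosome 1, named Scd, Scd2, Scd3 and Scd4, between positions 253028053 and 253232101. None of the 4 accessions in the IDs matched a transcript of that table, so a row cannot be given to 1 of these genes here. The 250 bases before the transcript start in the RefSeq promoter table are shown for Scd (chr1:253231732-253231981, minus strand) and Scd2 (chr1:253118127-253118376, plus strand), as examples of a window without and with CCAAT boxes, chosen after the boxes had been counted. The start used for Scd lies inside the annotated span of the gene. They are written 5′ to 3′ with CCAAT boxes, the site of nuclear factor Y, in capitals.
Scd: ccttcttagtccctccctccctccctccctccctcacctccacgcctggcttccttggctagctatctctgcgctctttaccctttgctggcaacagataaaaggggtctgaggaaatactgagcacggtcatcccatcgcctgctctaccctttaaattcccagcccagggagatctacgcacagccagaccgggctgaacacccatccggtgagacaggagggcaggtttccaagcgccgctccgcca
Scd2: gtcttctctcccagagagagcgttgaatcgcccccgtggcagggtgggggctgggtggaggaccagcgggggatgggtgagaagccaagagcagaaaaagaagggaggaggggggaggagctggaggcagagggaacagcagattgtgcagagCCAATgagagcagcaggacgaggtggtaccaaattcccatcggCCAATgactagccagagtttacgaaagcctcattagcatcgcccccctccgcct
The Scd2 window held 2 CCAAT boxes and the Scd window 0, where 34% of 33469 rat windows of this length held CCAAT on either strand. The Scd3 window held 2 CCAAT boxes and 1 TATAAA, a sequence held by 12.9% of windows, and the Scd4 window 0 of either. None of the 4 windows held AGGTCA, the half-site bound by nuclear receptors (14.1% of windows), or 2 such half-sites in a row with 1 base between them, a PPAR-type element (0.0508%). None held CACGTG, an E-box (5.59%), on either strand.

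The 6 probe sets fell into 4 patterns. Row j02585_at was bright in every group and rose to a similar level at both CA doses. Rows m15114_g_at and rc_aa875269_at were near 0 without CA, intermediate at 0.29% and highest at 0.54% in entire and stained sections. Row af036761_g_at had signal in CA-treated entire sections and almost nowhere else. Rows m15114_at and af036761_at were dim throughout: m15114_at lay between -55 and 0 on all 52 arrays, and af036761_at exceeded an intensity of 4, the floor for low values, on 3 of 52. The name given to the family, a high-dose response, thus covers 2 of its 6 rows, and both already had signal at 0.29% CA.

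The arrays differed in a sign of RNA quality. For GAPDH, a glycolytic enzyme whose RNA is read at both ends, the 3'/5' signal ratio goes up when 5' ends are missing. Its median was 1.54 over entire, 8.45 over stained, 11.8 over dehydrated, 4.70 over LCM-reference-time and 7.71 over microdissected samples. Among stained sections it was 10.2 in controls, 7.32 at 0.29% CA and 4.47 at 0.54% CA, and among entire sections 1.36, 1.35 and 2.16. Since the samples are bulk RNA, fewer cells of a type and less RNA per cell cannot be told apart.

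In untreated entire sections j02585_at had intensities between 406 and 1021 with a median of 639.5 (n = 8). At 0.29% CA they lay between 2419 and 3669 with a median of 2949.5 (n = 8), and at 0.54% CA between 2674 and 3315 with a median of 2844 (n = 6). All arrays of both doses lay above all controls, and the doses overlapped. Intensities are the authors' linear values, and folds below were fitted after low values were raised to the floor and arrays were quantile normalized on the log2 scale. At 0.29% CA the row was 5.31-fold higher than in controls (log2 2.41 ± 0.14, SE, limma adjusted p = 3.82e-11). At 0.54% CA it was 5.51-fold higher (log2 2.46 ± 0.15, SE, limma adjusted p = 6.29e-11). Between the doses, 0.54% minus 0.29%, the fitted log2 difference was 0.05 with a 95% interval from -0.26 to 0.37.

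Stained sections gave j02585_at the same order against control. The intensities were 669 to 1363 with a median of 847.5 in controls (n = 8), 2026 to 3910 with a median of 3279 at 0.29% (n = 7), and 3615, 3677, 3770, 3925 and 4157 at 0.54%. Again no CA array overlapped the controls, and the GAPDH ratio also differed between these doses; its part in this order was not tested. The row was 2.83-fold higher than control at 0.29% (log2 1.50 ± 0.19, SE, limma adjusted p = 2.76e-05) and 3.63-fold higher at 0.54% (log2 1.86 ± 0.21, SE, limma adjusted p = 4.42e-06). The difference between the doses was 0.36 on the log2 scale (95% interval -0.08 to 0.81), and 2 of 5 arrays at 0.54% exceeded all 7 at 0.29%.

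Row m15114_g_at was at or under an intensity of 2 in all 8 untreated entire sections. At 0.29% CA the 8 entire sections gave 29 to 46 with a median of 38, and at 0.54% CA the 6 gave 98, 116, 194, 211, 249 and 303. No array of one dose overlapped another dose. The mean was 195 ± 78.1 at 0.54% (SD, n = 6) and 38.0 ± 6.21 at 0.29% (SD, n = 8), and the fitted difference 2.20 ± 0.17 (log2, SE). The fold against control depends on the floor, because every control lay under it. At 0.29% the fitted log2 difference from control was 2.96 ± 0.16 (SE) with the floor of 4 and 0.65 ± 0.15 (SE) with a floor of 20. At 0.54% it was 5.16 with the floor of 4 and 2.84 with a floor of 20.

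The stained sections repeated the 3 levels of m15114_g_at with more spread. Controls had -12 to 5 (n = 8), the 7 arrays at 0.29% had 7, 19, 20, 31, 41, 68 and 74, and the 5 at 0.54% had 98, 133, 147, 150 and 215. The doses did not overlap. The mean was 149 ± 42.5 at 0.54% (SD, n = 5) and 37.1 ± 25.5 at 0.29% (SD, n = 7), with a fitted log2 difference of 2.12 ± 0.37 (SE). Against the controls, of which 7 of 8 were at the floor, the 0.29% arrays were fitted at log2 2.91 ± 0.33 (SE), and with a floor of 20 at log2 0.77 ± 0.27 (SE).

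Row rc_aa875269_at followed the same order. In entire sections controls lay between -6 and 9 (n = 8), the 0.29% arrays between 39 and 111 with a median of 53.5 (n = 8), and the 0.54% arrays at 147, 213, 237, 302, 382 and 558. In stained sections controls lay between -1 and 10 (n = 8), the 0.29% arrays at 13, 41, 42, 49, 92, 162 and 228, and the 0.54% arrays at 191, 201, 223, 411 and 432. The doses were separate in entire sections and overlapped in stained ones, where the highest 0.29% array, replicate 5, exceeded 3 of the 5 arrays at 0.54%. The fitted log2 difference of 0.54% from 0.29% was 2.24 ± 0.24 (SE) in entire and 1.93 ± 0.50 (SE) in stained sections. Against controls, 6 of 8 of which were at the floor in entire and 4 of 8 in stained sections, the 0.29% arrays were fitted at log2 3.41 ± 0.22 (SE) in entire and 3.54 ± 0.44 (SE) in stained sections. These differences also depend on the floor, and with a floor of 20 they were log2 1.25 and 1.73.

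**Figure D1:**
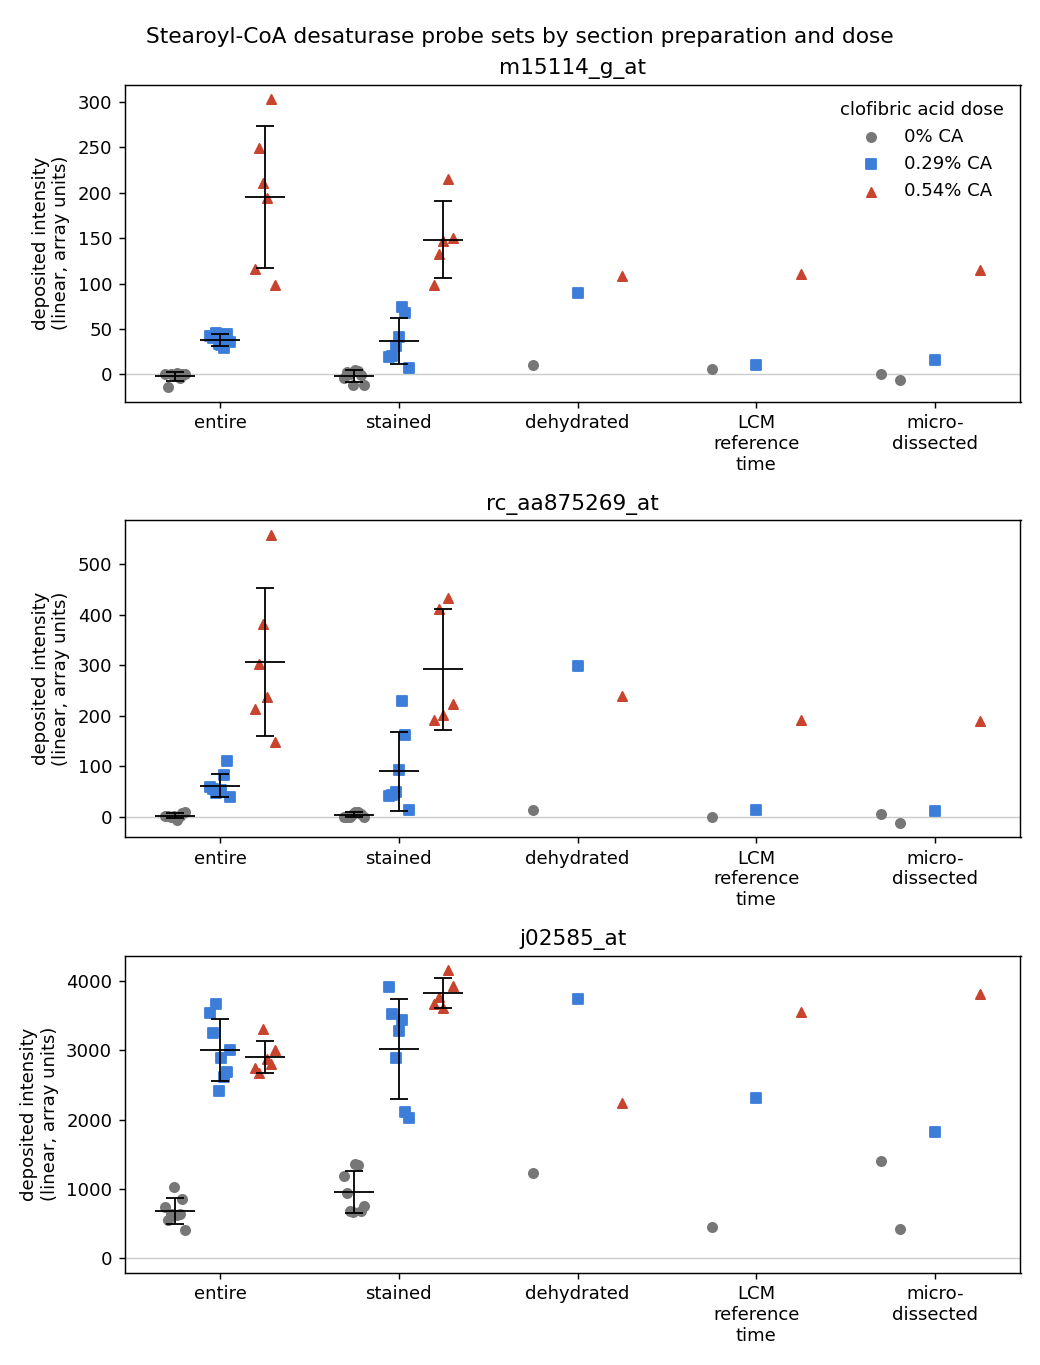
Deposited intensity (linear array units) of m15114_g_at, rc_aa875269_at and j02585_at on each of 52 arrays, by section preparation and CA dose, with bars for mean ± SD where a group has 5 or more arrays. The first 2 rows step up at each dose in entire and stained sections, while j02585_at lies between 2419 and 3669 at 0.29% and between 2674 and 3315 at 0.54% in entire sections.

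Counted over the family at 0.29% CA in entire sections, j02585_at and af036761_g_at rose against control, and 5.55% of all 7804 probe sets tested rose. Row af036761_g_at entered this fit only through its CA arrays, since every control lay under the floor. The fit did not call af036761_at (limma adjusted p = 0.313), and m15114_at could not be fitted because it never exceeded the floor. In 3 of the 6 rows every array at 0.29% lay above every control, which held for 2.04% of probe sets. In stained sections j02585_at rose at 0.29% (1.83% of 7913 probe sets), and 3 of the 6 rows did not overlap the controls (0.796%). At 0.54%, j02585_at and af036761_g_at rose in entire sections (8.10% of probe sets) and j02585_at in stained sections (3.12%). Row j02585_at lay fully above the controls at 0.54% in both, as 2.79% of probe sets did in entire and 3.35% in stained sections. Between 0.54% and 0.29%, the contrast that chose the family, the groups were fully apart and higher in 2 of 6 rows in entire sections (0.295% of probe sets) and in 1 in stained sections (0.190%). The comparisons with control share the control arrays of a preparation, and the CA arrays also entered the contrast that chose the family; nothing is read from the counts that include the 2 rows it rested on.

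The choice named no preparation, so the values of these 2 rows in dehydrated, LCM-reference-time and microdissected sections are also a description. Row m15114_g_at had 10 untreated, 90 at 0.29% and 108 at 0.54% CA in dehydrated sections. The LCM-reference-time values were 6, 10 and 111 in the same order. In microdissected liver it had 0 and -6 in the controls, 16 at 0.29% and 115 at 0.54%. On the deposited scale the row was highest at 0.54% in all 3 preparations. It was 1.20 times its 0.29% value in dehydrated, 11.1 times in LCM-reference-time and 7.19 times in microdissected samples. These are ratios of single arrays before normalization. The normalized log2 values at 0.29% and 0.54% were 6.27 and 7.05 in dehydrated sections. They were 3.58 and 7.11 in LCM-reference-time sections, and 4.94 and 6.90 in microdissected liver.

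The intensities of rc_aa875269_at were 13, 298 and 238 in dehydrated sections. The LCM-reference-time values were 0, 13 and 191. In microdissected liver they were 6 and -12 in the controls, 12 at 0.29% and 189 at 0.54%. On the deposited scale this row was higher at 0.54% than at 0.29% in 2 of the 3 preparations, and higher at 0.29% in dehydrated sections. That order turned with normalization, after which the dehydrated log2 values were 7.99 at 0.29% and 8.15 at 0.54%. A deposited value higher at 0.54% in all 3 preparations occurred in 10.4% of 8318 probe sets.

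With the 3 preparations averaged and the spread pooled over all 15 groups, the log2 difference of 0.54% from 0.29% was 2.09 ± 0.40 (SE) for m15114_g_at and 2.43 ± 0.56 (SE) for rc_aa875269_at. This takes a single array to have the spread of the groups with replicates. The size depended on which preparations entered. For m15114_g_at it was 2.74 without the dehydrated, 1.37 without the LCM-reference-time and 2.15 without the microdissected samples. For rc_aa875269_at it was 3.56, 1.71 and 2.02 in the same order. The labels do not say whether these sections came from the same rats as the others.

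Against controls, the averaged log2 difference of m15114_g_at was 2.06 ± 0.39 (SE) at 0.29% and 4.15 ± 0.39 (SE) at 0.54%. At 0.29% it was 1.59 without the dehydrated, 2.98 without the LCM-reference-time and 1.62 without the microdissected samples. For rc_aa875269_at the averaged differences were 2.80 ± 0.53 (SE) at 0.29%, with 2.05, 3.17 and 3.18 when the same samples were left out, and 5.23 ± 0.53 (SE) at 0.54%. With a floor of 20 the differences at 0.29% were 0.65 for m15114_g_at and 1.22 for rc_aa875269_at.

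Row j02585_at had 1226, 3737 and 2246 at the rising doses in dehydrated sections. The LCM-reference-time values were 445, 2320 and 3558. In microdissected liver it had 1403 and 418 in controls, 1827 at 0.29% and 3812 at 0.54%. Every CA array lay above the controls of its own preparation, as 6.44% of probe sets did at 0.29% and 9.98% at 0.54%, and the doses had no common order. Averaged, the row was 2.81-fold higher than control at 0.29% (log2 1.49 ± 0.25, SE, limma adjusted p = 2.16e-05) and 2.72-fold higher at 0.54% (log2 1.44 ± 0.25, SE, limma adjusted p = 3.84e-05). Of all probe sets, 5.75% rose at 0.29% and 5.73% at 0.54%, and 1.65% were higher at 0.54% than at 0.29%. The difference of 0.54% from 0.29% was log2 -0.05 with a 95% interval from -0.57 to 0.48 (limma adjusted p = 1).

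**Figure D2:**
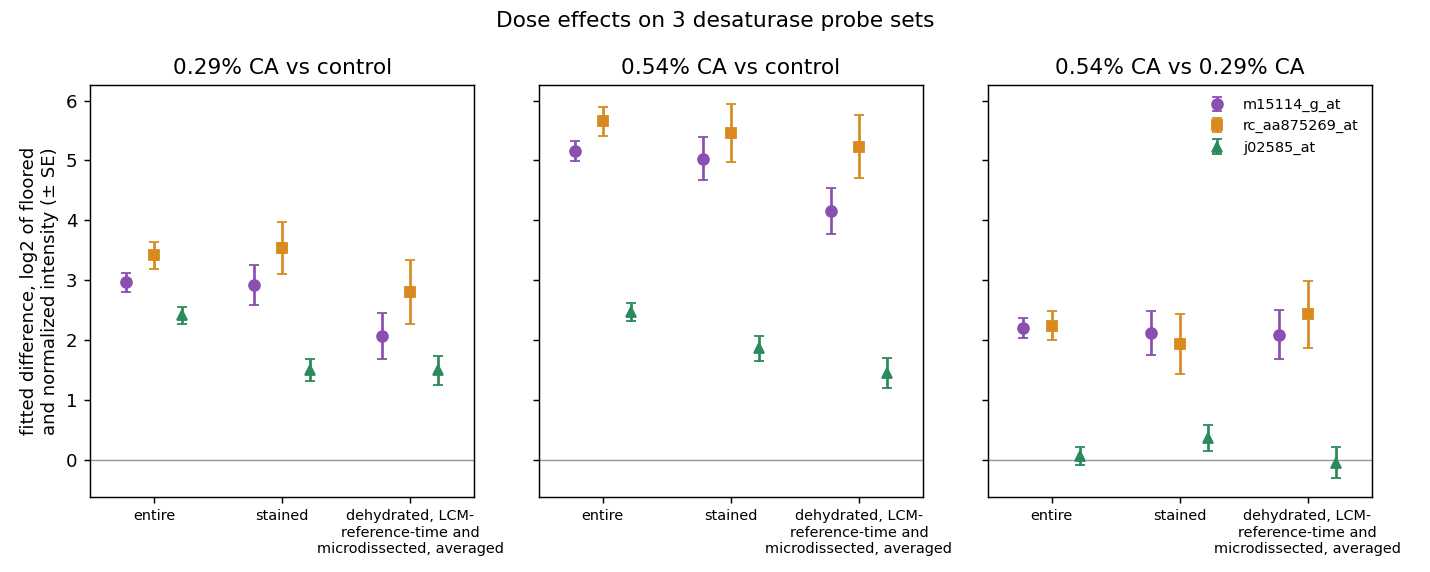
Fitted log2 differences (± SE) of 3 desaturase rows for each pair of CA doses in entire sections, in stained sections and in the average of the other 3 preparations. Between 0.54% and 0.29%, m15114_g_at and rc_aa875269_at lie between 1.93 and 2.43 in all 3, and j02585_at between -0.05 and 0.36. Differences from control of the first 2 rows depend on the floor.

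Stained and entire sections were also compared in untreated liver, which the choice of the family did not use. Row j02585_at was 1.72-fold higher in stained than in entire controls, at a mean intensity of 953 ± 304 in stained and 685 ± 189 in entire sections (SD, n = 8 each; log2 0.79 ± 0.16, SE, limma adjusted p = 0.000164). The 2 groups overlapped. Of the 6 rows 1 was called higher, against 16.4% of 8191 probe sets. As an alternative, floored log2 values were centred on each array's median in place of quantile normalization. On this median-centred scale all probe sets shifted by a median of 0.42 in this comparison, and j02585_at lay 0.58 above that shift. Row af036761_at, at the floor on all these arrays, shifted by 0.53 through the centring alone. With the GAPDH ratio, which differed between the preparations, as a covariate the call was lost (log2 0.44 ± 0.22, SE, limma adjusted p = 0.314). In that fit 400 probe sets were called in either direction, in place of 2475 without the covariate.

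The CA effect itself was compared between stained and entire sections. For m15114_g_at the effect in stained minus that in entire sections was -0.05 at 0.29% (95% interval -0.78 to 0.68) and -0.13 at 0.54% (-0.92 to 0.67), on the log2 scale. For rc_aa875269_at it was 0.12 (-0.87 to 1.11) and -0.19 (-1.27 to 0.89). The values and intervals of m15114_g_at and rc_aa875269_at are a description, with no test. For j02585_at it was -0.91 at 0.29% (unadjusted p = 0.000243, limma adjusted p = 0.125) and -0.60 at 0.54% (unadjusted p = 0.0188, limma adjusted p = 0.425). Of j02585_at, af036761_g_at and af036761_at, none passed at either dose, where 0.0855% and 0.134% of probe sets did. The adjusted p of j02585_at at 0.29% ranged down to 0.0457, reached without stained control replicate 4. On the median-centred scale the differences of j02585_at were smaller, -0.60 at 0.29% (limma adjusted p = 0.947) and -0.28 at 0.54% (limma adjusted p = 0.759). All probe sets shifted there by a median of -0.06 and -0.13. For m15114_g_at the differences were -0.54 and -0.59 on that scale, and for rc_aa875269_at -0.19 and -0.42.

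Row af036761_g_at behaved unlike the rest. Untreated entire sections gave -83 to 2 (n = 8). Entire sections at 0.29% CA gave -35, 3, 104, 111, 172, 322, 334 and 471, and those at 0.54% CA gave -4, 11, 73, 83, 102 and 219. In these groups 6 of 8 and 5 of 6 arrays exceeded the floor, against 0 of 8 controls. The fitted log2 differences from control were 4.10 ± 0.93 at 0.29% (SE, limma adjusted p = 0.00442) and 3.14 ± 1.0 at 0.54% (SE, limma adjusted p = 0.0356), both dependent on the floor. All 8 controls were set to the floor, so the row entered these fits only through CA arrays, and the controls added no spread. The call at 0.54% was lost with a floor of 20 (log2 1.40, limma adjusted p = 0.129) and in 9 of 22 fits that left out 1 array, with adjusted p up to 0.0909: those without entire control replicates 1, 2, 3, 5 and 6 and without entire replicates 1, 2, 3 and 4 at 0.54%. With the GAPDH ratio as a covariate the differences from control were log2 4.05 at 0.29% (limma adjusted p = 0.000546) and 3.84 at 0.54% (limma adjusted p = 0.00215). Between the doses the fitted log2 difference, 0.54% minus 0.29%, was -0.96 ± 1.0 (SE) without the covariate.

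Outside entire sections the row exceeded the floor on 2 of 20 stained arrays, with values of 8 and 15, and on none of the 10 arrays of the other preparations, where it lay between -117 and -39. Its signal followed the GAPDH ratio among entire sections at 0.29% CA: the 5 arrays with a ratio under 1.5 had 111, 172, 322, 334 and 471, and those with ratios of 1.67, 2.65 and 5.07 had 104, -35 and 3. Across those 8 arrays the normalized log2 intensity and the log2 ratio had Pearson r = -0.93 (exact permutation p = 9.92e-05, adjusted 0.00169) and Spearman rho = -0.97 (exact permutation p = 0.000595, adjusted 0.0101). Without the 2 arrays farthest from the median ratio r was -0.89 (n = 6). At 0.54% r was -0.60 (exact permutation p = 0.212, adjusted 0.361, n = 6) and rho -0.49 (exact permutation p = 0.356, adjusted 0.612), and r was -0.07 without the 2 farthest arrays. The part of RNA quality in the dose and preparation pattern of this row was not tested. The stained minus entire difference of its 0.29% effect was -3.98 ± 1.01 (SE, limma adjusted p = 0.148), and with the GAPDH covariate it was -4.45 (limma adjusted p = 0.0149). It also passed without entire replicate 6 or 7 at 0.29%, at -4.57 each (limma adjusted p = 0.0130 and 0.0131), and without the 6 arrays in doubt at -4.55 (limma adjusted p = 0.0315).

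**Figure D3:**
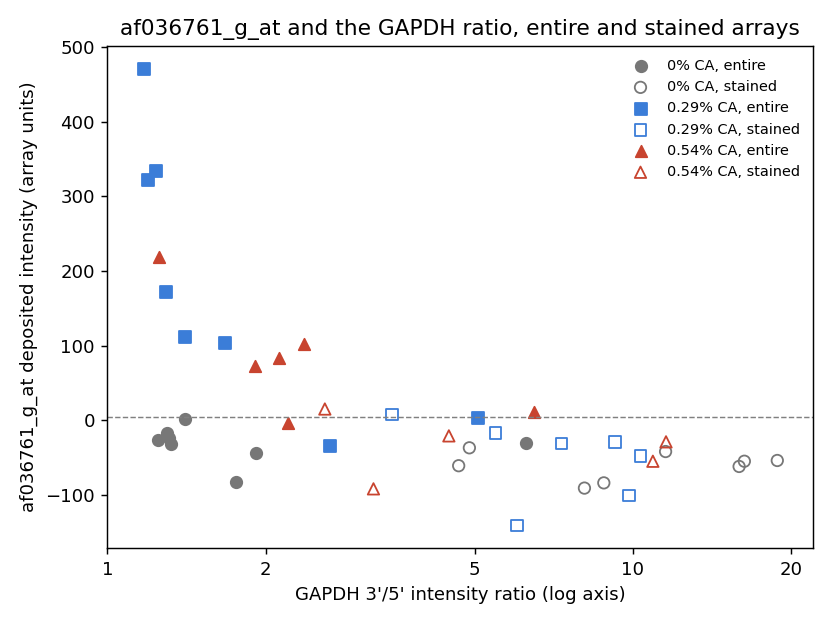
Deposited intensity of af036761_g_at (array units) against the GAPDH 3'/5' ratio (log axis) on 22 entire (filled) and 20 stained (open) arrays, with the floor of 4 as a dashed line. CA-treated entire sections with a low ratio reach up to 471, and the stained arrays lie at or under 15.

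The other rows were set against the same ratio inside their dose groups, among 17 relations in all. For rc_aa875269_at r was 0.88 in entire sections at 0.29% (exact permutation p = 0.0128, adjusted 0.0725, n = 8) and rested on 2 arrays, since without them it was -0.12. The rho was 0.38 (exact permutation p = 0.360, adjusted 0.612). At 0.54% in entire sections r was 0.86 for this row (exact permutation p = 0.0306, adjusted 0.0866, n = 6), 0.73 for m15114_g_at (exact permutation p = 0.0681, adjusted 0.165, n = 6) and 0.92 for j02585_at (exact permutation p = 0.0278, adjusted 0.0866, n = 6). None of these passed the adjustment, and without the 2 farthest arrays they were 0.21, -0.30 and 0.75 (n = 4). In entire sections at 0.29% r was -0.13 for m15114_g_at and 0.21 for j02585_at, and -0.84 and -0.52 without the 2 farthest arrays (n = 6). Among stained sections at 0.29% r was -0.29 for m15114_g_at, -0.13 for rc_aa875269_at and 0.10 for j02585_at (n = 7). These did not pass the adjustment either. With the ratio as a covariate the difference of 0.54% from 0.29% in entire sections was log2 2.13 for m15114_g_at and 2.01 for rc_aa875269_at. Without the covariate it was log2 2.20 and 2.24. The ratio also differed between these doses, and its part in the difference was not tested.

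Rows m15114_g_at and rc_aa875269_at also varied together among replicates in 1 of 3 groups. Among the 7 stained sections at 0.29% r was 0.97 (exact permutation p = 0.000595, adjusted 0.00506) and rho 0.96 (exact permutation p = 0.00278, adjusted 0.0236), with r = 0.95 without the 2 farthest arrays (n = 5). Replicates 5 and 6 were the highest 2 for both rows and replicate 7 the lowest. Among the 6 entire sections at 0.54% r was 0.88 (exact permutation p = 0.0278, adjusted 0.0866) and rho 0.89 (exact permutation p = 0.0333, adjusted 0.142), with r = 0.88 without the 2 farthest arrays. Among the 8 entire sections at 0.29% r was -0.06 (exact permutation p = 0.884, adjusted 0.884) and rho 0.05 (exact permutation p = 0.935, adjusted 0.963), with r = 0.00 without the 2 farthest. Both rows are read from the same arrays, so they are not independent measures. Row j02585_at did not vary with m15114_g_at past the adjustment in any of these 3 groups (r = 0.62, 0.68 and -0.29 in entire sections at 0.29%, at 0.54% and stained sections at 0.29%; exact permutation p adjusted 0.212, 0.252 and 0.776).

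**Figure D4:**
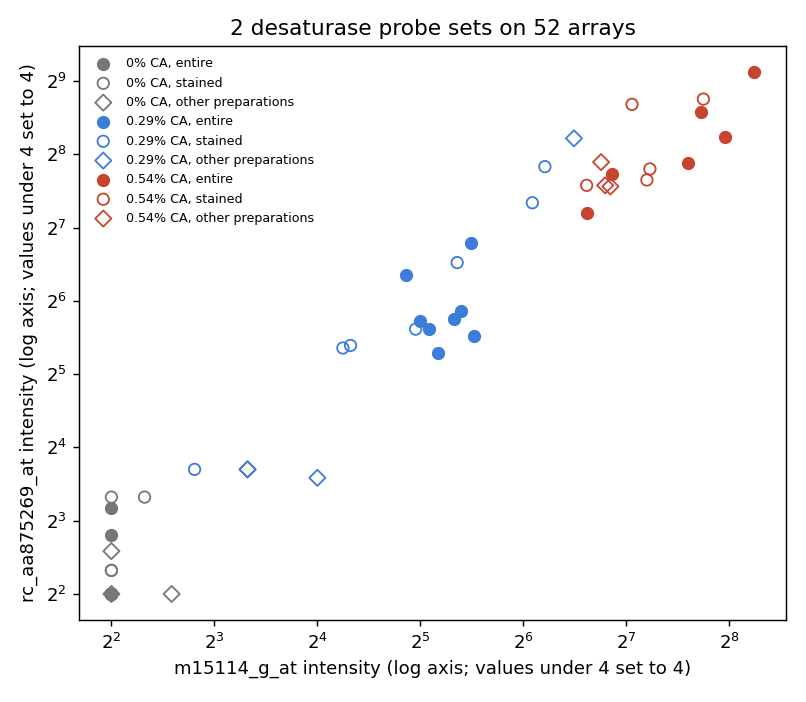
Intensities of rc_aa875269_at and m15114_g_at on 52 arrays (log axes, values under 4 set to 4), by dose and preparation. The rows step up together from control to 0.54% CA, and the dehydrated array at 0.29% and 2 stained arrays at 0.29% lie nearest to the 0.54% arrays.

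The probe sets most like m15114_g_at were sought among the 3780 others that were above the floor on all 22 entire arrays. The highest correlations of normalized log2 intensity were those of m58404_at (r = 0.98 over 22 entire arrays and 0.78 over 20 stained arrays) and rc_aa946368_at (r = 0.97 and 0.92). The mean intensity of m58404_at was 151, 469 and 833 at 0, 0.29 and 0.54% CA in entire sections, and that of rc_aa946368_at was 51.1, 239 and 499. The lowest correlations were those of j00738_s_at (r = -0.97 and -0.91) and rc_aa799803_at (r = -0.96 and -0.83). Their means were 3686, 1295 and 381 for j00738_s_at and 1493, 692 and 456 for rc_aa799803_at. All 4 had 3 ordered levels. They were picked for this likeness and the arrays share their doses, so no test is given.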

How the data were processed

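Each of 52 one-colour arrays has whole-number linear intensities in the authors' deposited table. Their software and scaling were not stated in the labels or the file. Values under the 10th percentile of positive intensities, 4, were raised to it, and log2 values of the 8740 non-control probe sets were quantile normalized. Linear models were fitted in R 4.3.3 by limma 3.58.1, with lmFit and eBayes, and p-values were Benjamini-Hochberg adjusted over every probe set that exceeded the floor on 1 or more fitted arrays (threshold 0.05): the 3 entire groups together, the 3 stained together, both for contrasts between them, and all 15 for the other preparations. Correlations within groups used exact permutation of pairings (Python 3.11.15, two-sided) with adjustment over 17 relations. The fits were tested on simulated data. The number of arrays limits the precision. Replicates are not said to come from separate animals, so p-values reflect only how far these samples spread, which may be technical. P-values are not given for dose comparisons of the 2 rows whose rise chose the family. The probe sets and lists were chosen with earlier results of these data known. Lists of lipogenic and PPARα target genes and cell type markers, fixed by symbol, could not be used, because the files name no genes. All 6 rows, and the 2 probe sets most and 2 least correlated with m15114_g_at, are named. Alternatives were another scaling, a floor of 20, quantile normalization ahead of flooring, a 25th percentile filter, another variance prior, array weights, all 15 groups, a replicate block, the GAPDH ratio as a covariate, leaving out each replicate or preparation, and leaving out 6 arrays in doubt. Of these, 3 were entire sections whose GAPDH ratio exceeded 4, and 3 were stained sections in which 5S rRNA was brighter than 200. Each limit was applied only to the kind of section named. Arrays of the other preparations were kept, among them LCM-reference-time at 0.29% CA with 5S rRNA at 587 and microdissected at 0.54% CA at 754.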

Additional observations from a re-analysis of the deposited data

Results flagged for a closer look

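Of 36 groups of 4 to 10 arrays examined over the 6 rows, 2 held an array far from the others, where chance gives about 1 in 20 groups. Entire control replicate 2 had -14 for m15114_g_at, and the nearest other control -4. Entire control replicate 1 had -54 for m15114_at, and the nearest other control -26. Both values lie under the floor and were set to it, so neither moved a fitted value.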

How the results depend on the processing

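Differences below are log2. The floor moved the differences from control of the rows with dim controls most. With a floor of 20, 0.54% CA against control was 2.84 for m15114_g_at and 3.49 for rc_aa875269_at in entire sections, and 2.75 and 3.67 in stained sections. With that floor the 0.29% differences fell to 0.77 for m15114_g_at in stained sections, and in the other 3 preparations to 0.65 for it and 1.22 for rc_aa875269_at; the higher floor covers part of their values. On the median-centred scale m15114_g_at at 0.54% against control in entire sections was 5.51, and j02585_at at 0.54% against 0.29% turned to -0.042. That difference ranged from -0.017, without entire replicate 5 at 0.54%, to 0.083 when 1 array was left out. The stained minus entire 0.29% effect of j02585_at ranged from -1.0 to -0.81 and passed once. The stained against entire control difference of j02585_at was 0.44 and lost its call with the GAPDH covariate, with which calls over all probe sets fell from 2475 to 400. For 0.54% against 0.29% in the other 3 preparations, leaving out LCM-reference-time sections gave 1.37 and 1.71 for m15114_g_at and rc_aa875269_at, and leaving out microdissected samples gave 2.02 for rc_aa875269_at. The difference of af036761_g_at between the doses in stained sections turned to -0.11 without stained replicate 3 at 0.54%, and reached 0.39 without stained replicate 4 at 0.29%. The cause of these changes was otherwise not tested. Same-numbered entire and stained arrays deviated together with correlations from -0.13 to 0.32 in 20 pairs, 4 of them best with their own number, so the numbers were not taken as pairs. With the replicate block m15114_g_at at 0.54% against 0.29% in entire sections was 2.20, and the probe sets called there were 211 in place of 79; in stained sections it was 2.07, with 1 in place of 5. The block changed no call of a desaturase row. Low signal limits m15114_at and af036761_at, for which nothing can be said of dose.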
